A study of Danio rerio with 12 samples.

Results

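Motile cilia and axoneme genes were followed in zebrafish (Danio rerio) gills as a single family. Members were all genes whose current symbol begins with cfap, dnah, dnai, dnal, dnaaf, rsph, tekt, ift and a digit, drc and a digit, odad or spef, together with spag6 and ccdc83, provided that 1 or more groups had a probe well above background on each of their 3 arrays. The annotation table holds 121 genes with such symbols, 67 of them had a matched probe on the array, and 62 met the signal requirement, out of 12616 genes tested. No dnah gene, which would encode a dynein heavy chain, had a matched probe on the array, so their signal could not be read. Many probes matched no symbol, and whether any of them measures a dnah gene is not known. Among the genes on the array, signal therefore chose the members, and the detection of each one is a description. Of the 62 genes, 50 were well above background on all 12 arrays, 11 met the requirement in 2 or 3 groups, and dnal4a met it only under ZnO. Just inside the limit, dnal4a was well above background on 5 arrays and drc1 on 7. Just outside it, cfap58 was well above background on 6 arrays and dnaaf19 on 6 and 7 by its 2 probes, with at most 2 arrays in any group. The other genes left out were cfap20dc, detected on 1 array, and cfap96 and dnaaf9, each detected on 0 arrays.

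The axoneme is the microtubule core of a motile cilium or a sperm tail: doublet microtubules carry dynein motors, radial spokes and the nexin-dynein regulatory complex around a central pair. Dyneins are put together in the cytoplasm by assembly factors and sit on the doublets through docking complexes, while tektins and several cilia and flagella associated proteins line the inside of the doublets. Intraflagellar transport carries components along the growing cilium and also builds immotile primary cilia, so its genes are used by many cell types that bear no motile cilium.

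Adult fish were exposed for 96 h to nanoparticles of CuO at 0.2 mg/L, ZnO at 4.8 mg/L or NiO at 17.5 mg/L, doses that the design text places at a fixed fraction of each particle's median lethal concentration, or were left untreated as controls. Each of the 4 groups has 3 samples, and each sample is a pool of gills from 10 fish. The question put to each comparison was which gill genes differ in level after exposure to 1 of these metal oxides.

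Each sample was hybridised to a one-colour Agilent array, on which 75.5% to 88.4% of spots were well above background and 0 were saturated. Levels below are log2 processed signals after subtraction of the 75th percentile of that array. Differences are log2 differences of group means, positive where the exposed gills were higher. The number of arrays, 3 per group, limits the precision. For the median gene, the difference from the controls was 0.42 in CuO gills, 0.32 in ZnO gills and 0.27 in NiO gills. Centring on ribosomal protein genes instead made these shifts 0.17, 0.09 and 0.11. Medians of gene groups are therefore also given relative to the median gene. Probes of different genes have different brightness, so levels are compared only between samples. The arrays of replicates 1, 2 and 3 lay on slides 1, 2 and 3, and each group kept 1 position on every slide, so position and group cannot be told apart.

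The labels had limits that touch every result. The deposited series table disagrees with the scanner files: 2 of its 12 columns hold the array linked to the sample they name, and 10 hold that of another sample. The scanner files carry each sample's own link and were used here. Read by its column names, the table gave 0 called genes of 12616 in every comparison with the controls, members included.

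Markers of the gill were present, and markers of the gonads and of other tissues moved between arrays. Of 19 gill epithelium and ionocyte genes on the array, 17 to 19 were well above background on every array. Their summed linear level, in units of the 75th percentile of each array, was 55.5 to 95.2 on CuO arrays, 57 to 134 on ZnO arrays and 82.2 to 100.03 on NiO arrays, against 41.2 to 51.8 in the controls. Their median level on CuO 3 (-3.37) and NiO 2 (-2.82) lay within the control range of -3.90 to -1.83. Of the 19, 1 rose under CuO, 3 under ZnO and 2 under NiO, against 11.4%, 13.8% and 10.1% of all genes. In each exposure 0 fell, against 13.7%, 11.9% and 12.1% of all genes. The 26 oocyte genes had medians of 3.98, 4.03 and 4.15 on the controls and 2.76 on NiO 1, but between -5.40 and -3.81 on the other 8 arrays. Their summed linear level spanned 1.92 to 3.78 on CuO arrays, 1.06 to 1.54 on ZnO arrays and 1.92 to 222 on NiO arrays, against 396 to 497 in the controls. The lists of brain, pituitary and ependyma and of olfactory epithelium had positive median differences in each exposure, though not every exposed array exceeded the controls. The brain list is made up mainly of hormone, neuron and glia genes and does not measure ciliated cells. Of 20 brain, pituitary and ependyma genes on the array, 12 to 20 were well above background on any one array, and the median difference of the 18 tested was 1.94 under CuO, 1.65 under ZnO and 1.53 under NiO. Their sums were 10.7 to 49.6 on CuO arrays, 8.35 to 51.8 on ZnO arrays and 11.5 to 46.4 on NiO arrays, against 4.21 to 17.7 in the controls. The sums on CuO 3 (10.7), ZnO 1 (8.35) and NiO 2 (11.5) lay within the control range. Of the 18, 2 rose in each exposure (11.4%, 13.8% and 10.1% of all genes rose under CuO, ZnO and NiO). Under ZnO 1 fell, against 11.9% of all genes. Of 7 olfactory epithelium genes on the array, 4 to 6 were well above background, and the median difference of the 5 tested was 1.30 under CuO, 0.64 under ZnO and 0.74 under NiO. Their sums were 2.33 to 5.88 on CuO arrays, 2.49 to 5.58 on ZnO arrays and 2.12 to 3.82 on NiO arrays, against 1.15 to 2.27 in the controls. Of the 5, 1 rose under CuO, 0 under ZnO and 0 under NiO. The median level of the 7 was -5.09 to -4.39 on NiO arrays, against -4.92 to -4.08 in the controls.

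Of 18 testis and sperm genes on the array, 14 to 18 were well above background on any one array, and their summed linear level spanned 3.51 to 19.4 on CuO arrays, 1.34 to 8.97 on ZnO arrays and 3.92 to 13.4 on NiO arrays, against 8.48 to 12.7 in the controls. The median of the 17 that were tested was -1.68 on CuO 2, -0.60 on CuO 3, -2.03 on ZnO 3, -2.10 on NiO 2 and -1.03 on NiO 3, and between -4.73 and -3.39 on the other 7 arrays. Among them, tssk6, a kinase of developing sperm, was well above background on 5 arrays. Its level was -1.74 and -1.5 on CuO 2 and CuO 3, -2.56 on ZnO 3, and -4.31 and -3.07 on NiO 2 and NiO 3, against -9.33 to -7.34 elsewhere. The Leydig cell hormone gene insl3 was -1.29, 0.31, -3.01, 1.31 and -1.32 on the same 5 arrays and at most -6.04 on the others. These 5 arrays are referred to below as the testis-rich arrays. They were picked out after the data were seen, and the name stands for the median of the list only. Of the 17 genes, 0 rose in any exposure, and 2 fell under CuO, 4 under ZnO and 1 under NiO. Over all genes, 11.4%, 13.8% and 10.1% rose and 13.7%, 11.9% and 12.1% fell under CuO, ZnO and NiO. The genes spo11, tdrd1 and cyp17a1 were higher on the 3 controls than on all exposed arrays, as were 14.0% of all genes. The summed level of the list on CuO 2, ZnO 3 and NiO 2 was 11.3, 8.97 and 10.5, within the range of the controls.

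The 62 cilia genes followed the testis list on several arrays. Their median was -2.36, -0.95 and -1.07 on the CuO arrays, -2.97, -2.75 and -1.49 on the ZnO arrays, and -2.0, -1.82 and -1.07 on the NiO arrays, against -2.27, -2.61 and -2.37 on the control arrays. Within every exposure, the testis-rich arrays had the higher medians. In pooled gills, a change in the number of ciliated cells or gametes and a change in RNA per cell cannot be told apart. The part of RNA from gonads, eye, brain or olfactory epithelium in the differences below was not tested.

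**Figure D1:**
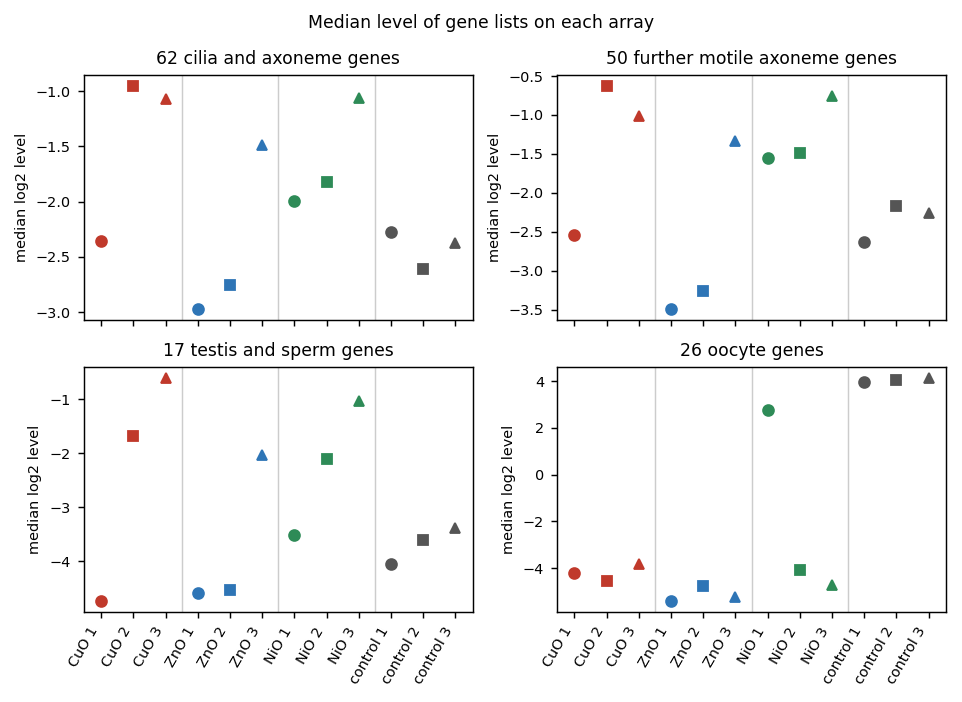
Median log2 level of 4 gene lists on each array, after subtraction of its 75th percentile, for CuO, ZnO, NiO and control replicates 1 to 3. Each point is 1 array. The cilia genes and the further axoneme genes are highest on CuO 2, CuO 3, ZnO 3 and NiO 3, and the oocyte genes are high on the 3 controls and NiO 1.

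Member by member, 12 of the 62 genes (19.4%) lay higher on all 5 testis-rich arrays than on all 7 others, against 0.721% of all genes tested. They were ccdc83, cfap263, cfap299, cfap53, cfap77, dnaaf4, dnai1.2, dnali1, drc1, drc2, odad1 and tekt1. The same order was found for 13 of 50 further motile axoneme genes, none of which belongs to the 62. It was also found for 4 of the 17 testis genes, a description only, since their median picked out these 5 arrays. It was found for 0 of 29 cilium transport and BBSome genes and 0 of 29 transition zone and basal body genes. With 0.721% of all genes in this order, those counts of 0 cannot set either list apart from other genes. Against the other 4 exposed arrays alone, the same 5 arrays were higher for 14 members (22.6%) and 17 of the 50 axoneme genes. There the order held for 1 of 29 transport genes, 2 of 29 transition zone genes and 1.28% of all genes.

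In shares close to those of all genes, other members followed the controls. The 8 members cfap20, cfap298, cfap97, dnaaf10, dnal4b, ift27, rsph10b and spef1 (12.9%) lay higher on the 3 controls than on all 9 exposed arrays. This order was shared by 14.0% of all genes and by 24 of 26 oocyte genes. For rsph10b and spef1 (3.23% of members), the controls and NiO 1 stood above the other 8 arrays, as they did for 5.94% of all genes and 25 of 26 oocyte genes. Another 8 members, ccdc83, dnai7, dnal1, ift122, ift172, ift80, ift81 and spef2 (12.9%), lay higher on all 9 exposed arrays than on the controls, against 13.0% of all genes. No member (0 of 62) was lowest on the 4 arrays that were low in eye transcripts, control 3, CuO 3, ZnO 1 and NiO 2, against 2.44% of all genes.

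**Figure D2:**
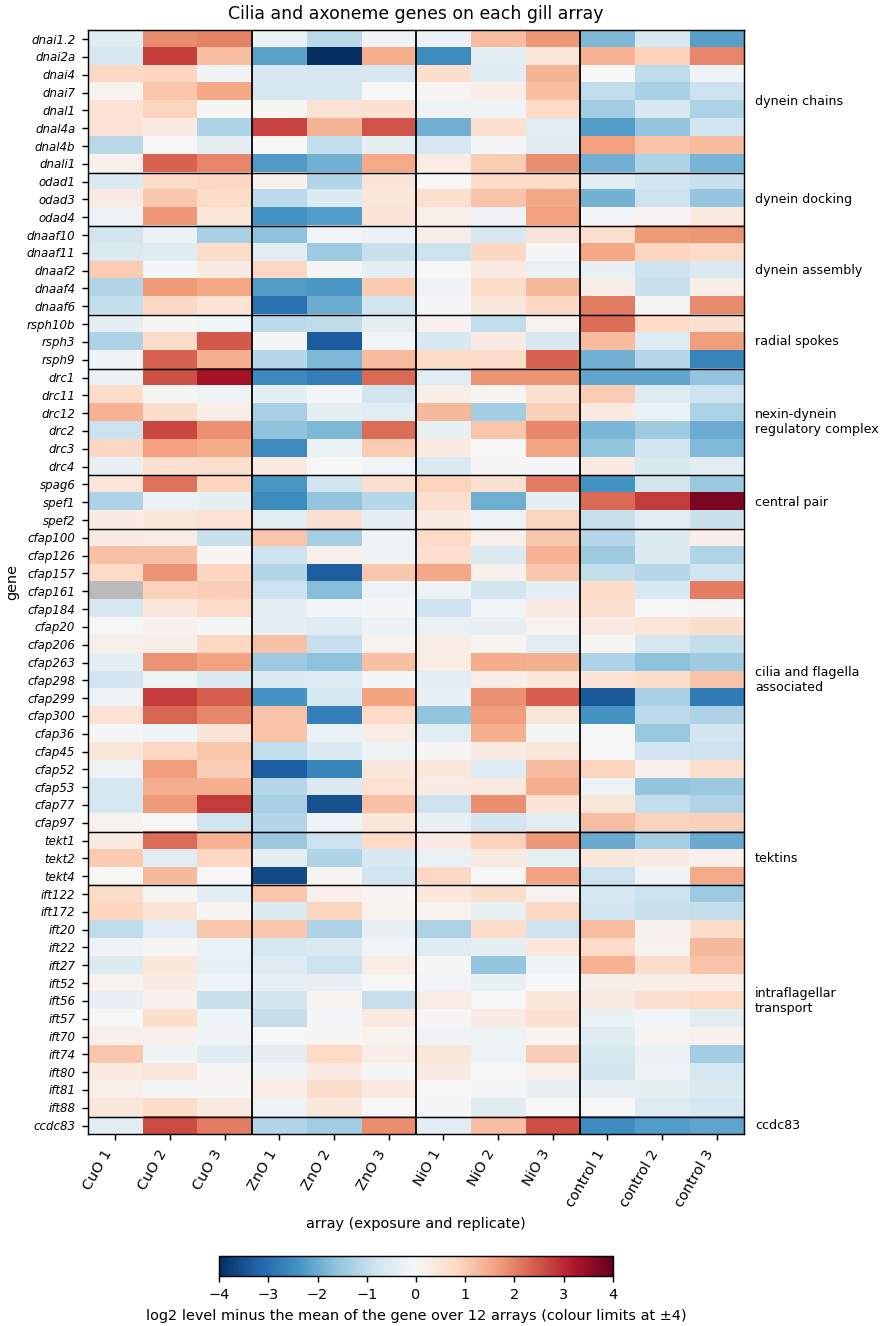
Level of each of the 62 cilia and axoneme genes on each array, as the log2 level minus the mean of that gene over the 12 arrays (red higher, blue lower, limits at ±4). Columns run from CuO through ZnO and NiO to control, rows are grouped by role, and the grey cell is the outlier spot of cfap161 on CuO 1. Red cells gather on CuO 2, CuO 3, ZnO 3 and NiO 3, and spef1 is red on the 3 controls.

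Under CuO, 16 of the 56 members well above background on all arrays of both groups rose (11.5% of all such genes rose) and 5 fell (13.6% of all such genes fell), at limma's adjusted p of 0.05 over all genes tested. Whatever their detection, 18 of the 62 members rose (11.4% of all genes) and 5 fell (13.7%). The 62 members had a median difference of 0.87, which is 0.46 above the median gene, and 38 of them lay above the median gene. The 3 CuO arrays were all higher than the 3 controls for 26 members, against 27.4% of all genes, and all lower for 11, against 20.8%. Within slides, the member median relative to the median gene was 0.08 on slide 1, 1.03 on slide 2 and 0.62 on slide 3. Without the 5 testis-rich arrays, which leaves CuO 1 alone in its group, 0 members were called either way and the relative median was 0.30, with 432 genes called in all, against 3162 in the full fit. Without the 4 arrays low in eye transcripts, 5 members rose and 4 fell. The count of rises was 6 without control 1, 4 without control 3, 5 without CuO 2 and 10 without CuO 3, and the count of falls was 2 without control 3 and 3 without CuO 1. Over all genes the rises numbered 923, 683, 785 and 1303 in those 4 fits, against 1439 in the full fit, and the falls 1193 and 1261, against 1723.

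Under NiO, 9 of 56 such members rose (background 10.5%) and 3 fell (background 11.9%). Over all 62 members, 11 rose (10.1% of all genes) and 4 fell (12.1%). The member median difference was 0.71, or 0.44 above the median gene, and 39 of 62 members lay above the median gene. All 3 NiO arrays stood above the controls for 26 members, against 22.9% of all genes, and below them for 10, against 19.7%. The relative median within slides was 0.11, 0.47 and 0.78 on slides 1, 2 and 3. Leaving out the testis-rich arrays or the arrays low in eye transcripts left 0 members called in either direction, but over all genes these settings called 0 and 5 genes. The count of rises was 3 without control 1, 5 without control 2, 1 without control 3, 5 without NiO 2 and 1 without NiO 3, and the 3 falls became 1 without control 1, control 3, NiO 2 or NiO 3. Over all genes the rises numbered 688, 1116, 309, 703 and 557 in the first 5 fits, against 1280 in the full fit, and the falls 1044, 652, 1021 and 912 in the last 4, against 1525.

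Under ZnO more members fell than rose, with 3 of 52 members rising (background 14.8%) and 12 falling (background 11.2%). Over all 62 members, 4 rose (13.8% of all genes) and 12 fell (11.9%). The member median difference was 0.24, and relative to the median gene it was -0.08. It was positive relative to the median gene by 0.08 with quantile normalization, by 0.01 with normexp background correction, by 0.15 with array weights and by 0.07 without ZnO 2, and it was -0.50 without ZnO 3, the testis-rich array. Within slides it was -0.73, -0.61 and 0.46 on slides 1, 2 and 3. All 3 ZnO arrays stood above the controls for 9 members, against 25.6% of all genes, and below them for 15, against 17.2%. Without the testis-rich arrays, 0 members rose and 4 fell, and without the arrays low in eye transcripts also 0 rose and 4 fell. The count of falls was 7 without control 1, 5 without control 3, 6 without ZnO 1 and 6 without ZnO 2, and the count of rises was 0 without control 3 and 1 without ZnO 2. Over all genes the falls numbered 1163, 969, 1429 and 1092 in the first 4 fits, against 1506 in the full fit, and the rises 576 and 790 in the last 2, against 1735.

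**Figure D3:**
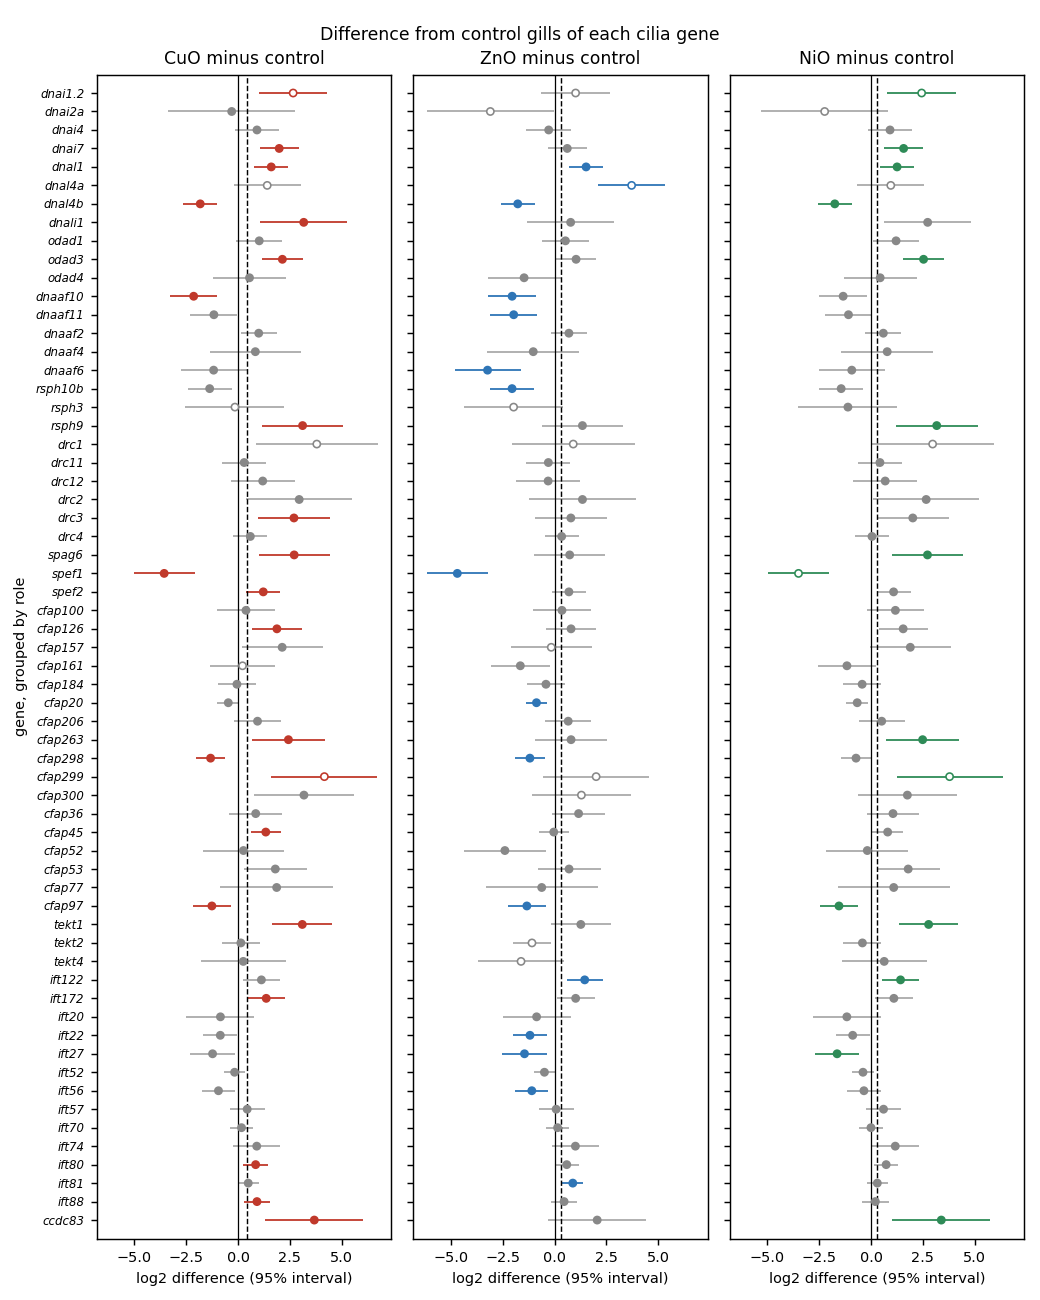
Log2 difference from the control gills of each of the 62 genes, with its 95% interval, under CuO, ZnO and NiO. Coloured points had an adjusted p below 0.05, open points were not well above background on every array of both groups, the solid line marks 0 and the dashed line the median gene. The widest departures are spef1, lower in all exposures, and cfap299, higher under CuO and NiO.

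Of the 54 member calls against the controls, those not detected on every array included, 13 were kept without the arrays low in eye transcripts. With centring on ribosomal protein genes 34 were kept. Gene by gene, loss in such fits is named below for some calls only. Among the dynein chains, dnai7, dnal1, dnali1 and dnal4b carried the changes. The light chain gene dnal1, whose product binds an outer arm heavy chain, was -0.41, -0.09 and -0.93 under CuO, -0.91, -0.40 and -0.36 under ZnO, and -1.14, -1.12 and -0.19 under NiO, against -2.39, -1.58 and -2.26 in the controls. All 9 exposed arrays were above all 3 controls. It rose 3.03-fold under CuO (adjusted p = 0.0119), 2.87-fold under ZnO (adjusted p = 0.0157) and 2.39-fold under NiO (adjusted p = 0.0361). The CuO call held in all 12 fits that left out 1 array. The ZnO call was lost without control 1, control 3 or ZnO 2, and the NiO call without control 1, control 3, CuO 1, NiO 2 or NiO 3.

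The intermediate chain-like gene dnai7, which acts with the inner dynein arms, was -4.51, -3.54 and -3.12 under CuO, -5.34, -5.30 and -4.64 under ZnO, and -4.55, -4.41 and -3.45 under NiO, against -5.64, -5.96 and -5.51 in the controls. The exposed arrays again lay above the controls, most narrowly for ZnO. The rise was 3.95-fold under CuO (adjusted p = 0.00857), a call kept in all 12 fits that left out 1 array, and 2.97-fold under NiO (adjusted p = 0.026), which was not called without NiO 3 or any 1 of the controls. Neither call was kept without the arrays low in eye transcripts. Under ZnO the difference was 0.61 (95% interval -0.33 to 1.55, adjusted p = 0.311).

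The inner arm light intermediate chain gene dnali1 split along the testis-rich arrays. It was -0.51, 1.67 and 1.25 under CuO, -2.96, -2.60 and 0.82 under ZnO, and -0.39, 0.33 and 1.18 under NiO, against -2.63, -1.91 and -2.54 in the controls. ZnO 1 lay below every control, ZnO 2 lay between controls, and ZnO 3 lay above them. It rose 8.97-fold under CuO (adjusted p = 0.0333), which was not called without CuO 2, CuO 3 or any 1 of the controls, and the difference under NiO was 2.73 (adjusted p = 0.0615).

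The outer arm light chain paralogs dnal4a and dnal4b went different ways. The level of dnal4b was -2.54, -1.42 and -1.80 under CuO, -1.42, -2.41 and -1.79 under ZnO, and -2.12, -1.49 and -1.93 under NiO, against 0.19, -0.31 and -0.18 in the controls, with no overlap between exposed and control arrays. It fell 3.54-fold under CuO (adjusted p = 0.00681), 3.42-fold under ZnO (adjusted p = 0.0083) and 3.36-fold under NiO (adjusted p = 0.0111), and each call held in all 12 fits that left out 1 array. The NiO call of dnal4b was lost without the arrays low in eye transcripts, and the ZnO call without the testis-rich arrays. Its paralog dnal4a was well above background on all 3 ZnO arrays, 2 CuO arrays, 0 NiO arrays and 0 control arrays. It was -6.34, -6.59 and -8.14 under CuO, -4.20, -5.56 and -4.38 under ZnO, and -8.84, -6.25 and -7.35 under NiO, against -9.16, -8.44 and -7.68 in the controls. Set against the lowest signal well above background, the group mean of dnal4a was at least 5.84-fold higher under ZnO than in the controls. It was at least 3.76-fold higher under ZnO than under NiO. Since its detection under ZnO chose it, these are descriptions.

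The other 3 chains did not pass the test or were not detected throughout. The intermediate chain gene dnai1.2 was -6.43, -4.05 and -3.96 under CuO and -6.18, -4.69 and -4.21 under NiO, against -7.75, -6.54 and -8.12 in the controls, only 1 of which was well above background. The outer arm intermediate chain gene dnai2a varied within groups, with -5.09, -1.67 and -3.24 under CuO, -6.58, -8.80 and -2.98 under ZnO, and -6.96, -4.88 and -3.94 under NiO, against -3.06, -3.53 and -2.49 in the controls. CuO 2 lay above all controls in dnai2a, CuO 3 and ZnO 3 lay within their range, and the other 6 exposed arrays lay below it. For dnai4 the differences were 0.91 under CuO, -0.28 under ZnO and 0.92 under NiO (adjusted p = 0.182, 0.691 and 0.199).

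**Figure D4:**
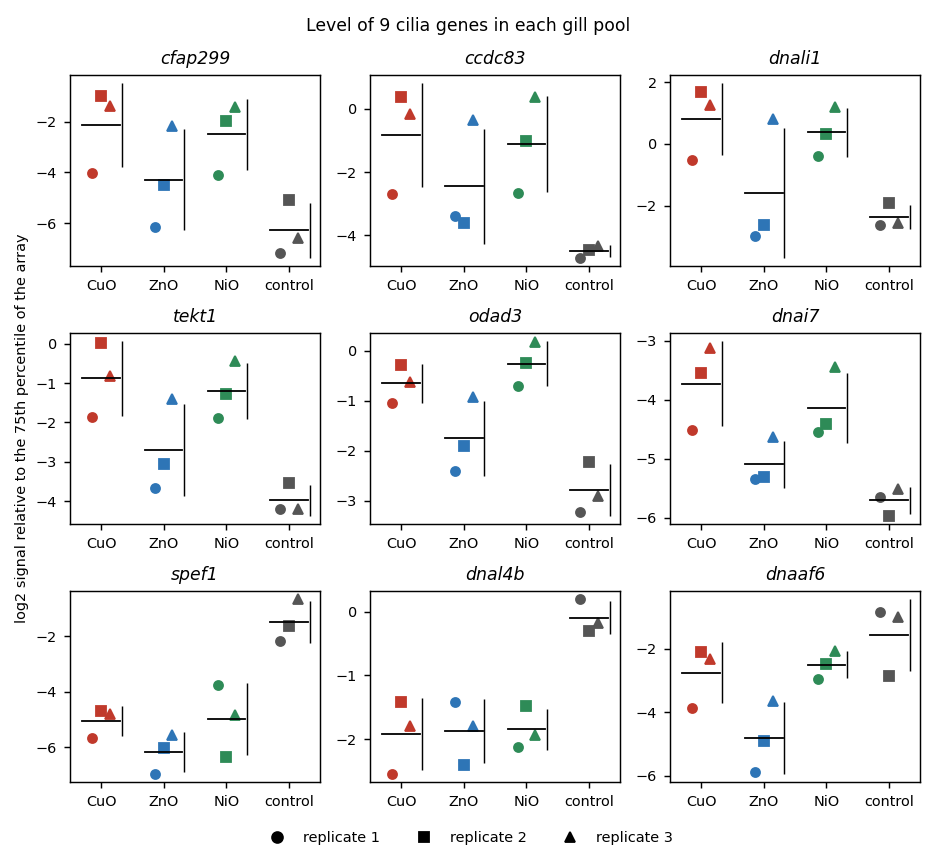
Log2 level of 9 cilia genes in each gill pool under CuO, ZnO, NiO and in the controls, after subtraction of the 75th percentile of each array. Points are pools (circle, square and triangle for replicates 1, 2 and 3), horizontal lines are means and vertical lines are 1 SD to each side of the mean (n = 3). In cfap299, ccdc83, dnali1 and tekt1 replicate 3 of ZnO lies well above replicates 1 and 2, and in spef1 and dnal4b every control lies above every exposed pool.

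Of the genes that dock the outer arm on the doublet, odad3 rose under CuO and NiO. It was -1.05, -0.27 and -0.63 under CuO, -2.41, -1.91 and -0.93 under ZnO, and -0.71, -0.23 and 0.18 under NiO, against -3.24, -2.22 and -2.90 in the controls. CuO and NiO arrays all stood above the controls, whereas ZnO 1 lay below control 2. The rise was 4.39-fold under CuO (adjusted p = 0.00734) and 5.78-fold under NiO (adjusted p = 0.00649), and both calls held in all 12 fits that left out 1 array. The NiO call was lost without the arrays low in eye transcripts. Without the 5 testis-rich arrays the differences were 1.74 under CuO and 2.08 under NiO, each from 1 array. Under ZnO the difference was 1.04 (95% interval 0.06 to 2.01, adjusted p = 0.108). For odad1 the differences were 1.02, 0.52 and 1.21 under CuO, ZnO and NiO (adjusted p = 0.156, 0.47 and 0.112), and for odad4 they were 0.55, -1.47 and 0.44 (adjusted p = 0.619, 0.197 and 0.72).

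The dynein assembly factors that were called were all lower in the exposed gills. No factor of the 5 rose in any exposure, while 1 fell under CuO, 3 under ZnO and 0 under NiO. Over all genes, 11.4%, 13.8% and 10.1% rose and 13.7%, 11.9% and 12.1% fell under CuO, ZnO and NiO. The largest fall was that of dnaaf6, a factor that helps fold dynein chains, which was -3.86, -2.09 and -2.32 under CuO, -5.89, -4.90 and -3.64 under ZnO, and -2.95, -2.49 and -2.08 under NiO, against -0.84, -2.87 and -1.02 in the controls. Only the ZnO arrays were all below the controls. It fell 9.39-fold under ZnO (adjusted p = 0.0109), which held in all 12 fits that left out 1 array and was called without the testis-rich arrays, but not without the arrays low in eye transcripts. The differences were -1.18 under CuO (adjusted p = 0.238) and -0.93 under NiO (adjusted p = 0.379).

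The factor gene dnaaf10, whose product works with a co-chaperone complex, was -2.04, -1.56 and -2.63 under CuO, -2.96, -1.44 and -1.55 under ZnO, and -1.08, -1.95 and -0.81 under NiO, against -0.64, 0.39 and 0.44 in the controls. All exposed arrays were below the controls. It fell 4.41-fold under CuO (adjusted p = 0.014) and 4.14-fold under ZnO (adjusted p = 0.018), with both calls lost without control 3, and the NiO difference was -1.35 (adjusted p = 0.0875). The leucine-rich factor gene dnaaf11 fell 3.92-fold under ZnO (adjusted p = 0.0198), lost without control 1 or ZnO 2. By contrast, dnaaf4 was -0.67 and -0.84 on CuO 2 and CuO 3, -1.31 on ZnO 3, and -1.64 and -1.06 on NiO 2 and NiO 3, with all other arrays between -4.70 and -2.13. Its group differences of 0.83, -1.03 and 0.78 under CuO, ZnO and NiO had adjusted p = 0.546, 0.472 and 0.605. The differences of dnaaf2 were 0.99, 0.69 and 0.59 (adjusted p = 0.0862, 0.218 and 0.301).

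Of the radial spoke genes, rsph9 rose under CuO and NiO and rsph10b fell under ZnO. The spoke head gene rsph9 was -4.42, -1.89 and -2.81 under CuO, -5.39, -6.05 and -2.98 under ZnO, and -3.52, -3.53 and -1.90 under NiO, against -6.15, -5.38 and -6.91 in the controls. The CuO and NiO arrays were all above the controls. It rose 8.63-fold under CuO (adjusted p = 0.0286), lost without control 1, control 3, CuO 2 or CuO 3, and 8.98-fold under NiO (adjusted p = 0.0297), lost without control 1, control 3, NiO 2 or NiO 3.

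The level of rsph10b was -2.55, -2.10 and -2.24 under CuO, -3.23, -3.17 and -2.52 under ZnO, and -1.96, -3.13 and -2.01 under NiO, against 0.10, -1.34 and -1.53 in the controls. Every exposed array was below every control. The fall of 4.14-fold under ZnO passed the test (adjusted p = 0.0128) and held in all 12 fits that left out 1 array, while the differences of -1.37 under CuO (adjusted p = 0.0585) and -1.44 under NiO (adjusted p = 0.0534) did not pass. The ZnO call was lost without the testis-rich arrays. The spoke gene rsph3 spanned -6.79 to -3.10 on the CuO arrays, -8.87 to -5.61 on the ZnO arrays and -6.19 to -5.21 on the NiO arrays, against -6.05 to -3.86 in the controls. Its probes disagreed in sign. The brightest had differences of -0.15, -1.97 and -1.11 under CuO, ZnO and NiO, and the other had 2.01, 0.85 and 1.37.

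All 6 genes of the nexin-dynein regulatory complex, which links neighbouring doublets, had positive differences under CuO and NiO by their brightest probe. Of these, drc1 was chosen by its detection under CuO and NiO, so its sign there is a description. Positive differences were found for 62.9% of all genes under CuO and 59.1% under NiO. By that probe drc3 passed the test under CuO, while drc2, drc4, drc11 and drc12 did not, and no test is read for drc1. The level of drc3 was -1.23, -0.41 and -0.55 under CuO, -4.57, -2.32 and -1.02 under ZnO, and -1.67, -2.08 and -0.48 under NiO, against -3.63, -2.83 and -3.81 in the controls. It rose 6.47-fold under CuO (adjusted p = 0.0304), lost without control 1, control 3 or any 1 of the CuO arrays, and its NiO difference was 2.01 (adjusted p = 0.0903).

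The level of drc2 was -3.87, -0.33 and -1.18 under CuO, -4.61, -4.81 and -0.77 under ZnO, and -3.29, -1.88 and -1.07 under NiO, against -4.82, -4.41 and -4.98 in the controls. The testis-rich arrays were the 5 highest. Its differences were 2.95, 1.34 and 2.66 under CuO, ZnO and NiO (adjusted p = 0.086, 0.417 and 0.125). The complex's base gene drc1 was well above background on 3 CuO, 1 ZnO and 3 NiO arrays, against 0 control arrays. It was -6.04, -3.26 and -2.49 under CuO, -8.36, -8.56 and -3.56 under ZnO, and -6.26, -4.01 and -4.0 under NiO, against -7.88, -7.89 and -7.40 in the controls. Set against the lowest signal well above background, its group mean was at least 9.98-fold higher under CuO and at least 5.63-fold higher under NiO than in the controls. These are descriptions and no test is read. The differences of drc4, drc11 and drc12 lay between -0.31 and 1.19 over the 3 exposures by their brightest probe, and 0 of them were called. The probes of drc11 disagreed: its other probe, well above background on all 12 arrays, had differences of 2.35 under CuO, 1.31 under ZnO and 2.22 under NiO (limma adjusted p = 0.0167, 0.127 and 0.0261).

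The central pair genes held the largest fall. The gene spef1, whose product bundles the central microtubules and binds microtubules in other epithelial cells too, was -5.66, -4.70 and -4.78 under CuO, -6.95, -6.01 and -5.56 under ZnO, and -3.76, -6.36 and -4.82 under NiO, against -2.15, -1.64 and -0.67 in the controls. Every control was above every exposed array, and NiO 1, the exposed array high in oocyte transcripts, was the highest of the exposed arrays. It fell 11.8-fold under CuO (95% interval of the log2 difference -5.04 to -2.09, adjusted p = 0.00482) and 25.8-fold under ZnO (95% interval -6.16 to -3.22, adjusted p = 0.00214). Both calls held in all 12 fits that left out 1 array. Without the testis-rich arrays the difference was -5.00 under ZnO (adjusted p = 0.012) and -4.18 under CuO (adjusted p = 0.0549), the CuO value resting on 1 array. Under NiO, where 2 of the 3 arrays were well above background, the difference was -3.50.

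The other central pair genes had positive differences under CuO and NiO. The gene spag6 was -0.53, 1.16 and -0.16 under CuO, -3.33, -1.76 and -0.36 under ZnO, and -0.11, -0.39 and 1.03 under NiO, against -3.40, -1.76 and -2.48 in the controls. It rose 6.52-fold under CuO (adjusted p = 0.0284), lost without control 1, control 3 or CuO 2, and 6.59-fold under NiO (adjusted p = 0.0307), lost without control 1, control 3 or any 1 of the NiO arrays. CuO and NiO arrays did not overlap the controls. The projection gene spef2 rose 2.32-fold under CuO (adjusted p = 0.0361), lost without control 1, control 3, NiO 1 or any 1 of the CuO arrays, and its NiO difference was 1.09 (adjusted p = 0.0583).

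Of the 17 cilia and flagella associated genes, 4 rose and 2 fell under CuO, 0 rose and 3 fell under ZnO, and 2 rose and 1 fell under NiO, where calls include members not detected on every array. Over all genes, 11.4%, 13.8% and 10.1% rose and 13.7%, 11.9% and 12.1% fell under CuO, ZnO and NiO. The largest difference was that of cfap299, which was -4.01, -1.0 and -1.36 under CuO, -6.17, -4.49 and -2.18 under ZnO, and -4.09, -1.98 and -1.42 under NiO, against -7.16, -5.08 and -6.61 in the controls. Of the controls, 2 were well above background. The CuO and NiO arrays were all above the controls, by 4.16 and 3.79 in the group means, and the testis-rich arrays were the 5 highest. Of the other large differences, that of cfap300 under CuO was 3.18 (adjusted p = 0.0545). Those of cfap157 under NiO and cfap161 under ZnO were 1.89 and -1.65 (adjusted p = 0.148 and 0.0805).

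The gene cfap263, which has a part in ciliogenesis in mammals, was -1.90, 0.29 and 0.11 under CuO, -2.95, -3.13 and -0.31 under ZnO, and -1.21, -0.02 and -0.08 under NiO, against -2.73, -3.13 and -2.92 in the controls. It rose 5.38-fold under CuO and 5.61-fold under NiO (adjusted p = 0.0463 for each), and each call was lost in 8 of the 12 fits that left out 1 array. The basal body gene cfap126 rose 3.66-fold under CuO (adjusted p = 0.0289), which was not called without control 1, control 3, CuO 1 or CuO 2. The doublet lumen gene cfap45 was -0.48, -0.12 and 0.14 under CuO, -1.96, -1.5 and -1.12 under ZnO, and -0.92, -0.63 and -0.51 under NiO, against -0.95, -1.72 and -1.81 in the controls. It rose 2.52-fold under CuO (adjusted p = 0.0157), lost without control 3, while its ZnO difference was -0.04 (95% interval -0.77 to 0.69, adjusted p = 0.943).

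The falls in this group were smaller. The gene cfap298, needed for cilia motility in zebrafish, was -0.83, -0.26 and -0.62 under CuO, -0.62, -0.58 and -0.10 under ZnO, and -0.49, 0.21 and 0.38 under NiO, against 0.49, 0.69 and 1.09 in the controls. It fell 2.51-fold under CuO (adjusted p = 0.0139), lost without control 3 or CuO 1, and 2.28-fold under ZnO (adjusted p = 0.0225), lost without control 3, ZnO 1 or ZnO 2. The difference under NiO was -0.72 (adjusted p = 0.129), although the exposed arrays lay below the controls there too.

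The gene cfap97 fell 2.40-fold under CuO (adjusted p = 0.0491), 2.53-fold under ZnO (adjusted p = 0.0398) and 2.92-fold under NiO (adjusted p = 0.0258). These calls were kept in 2, 3 and 7 of the 12 fits that left out 1 array. The inner junction gene cfap20 was 1.49, 1.64 and 1.39 under CuO, 1.12, 0.97 and 1.23 under ZnO, and 1.20, 1.13 and 1.61 under NiO, against 1.80, 1.95 and 2.19 in the controls. The groups did not overlap, and the 1.83-fold fall under ZnO passed the test (adjusted p = 0.0243) and was lost without control 2, control 3, ZnO 1 or ZnO 2. The doublet lumen gene cfap52 was -4.55, -3.88 and -0.79 under ZnO, against -0.38, -1.07 and -0.58 in the controls, a difference of -2.40 (adjusted p = 0.0712), and ZnO 3 lay within the controls' range.

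Among the tektins, tekt1 was -1.86, 0.03 and -0.82 under CuO, -3.67, -3.06 and -1.41 under ZnO, and -1.88, -1.28 and -0.45 under NiO, against -4.20, -3.53 and -4.21 in the controls. The CuO and NiO arrays lay above every control, and ZnO 1 lay between controls. It rose 8.55-fold under CuO (adjusted p = 0.00788), a call kept in all 12 fits that left out 1 array, and 6.85-fold under NiO (adjusted p = 0.0156), lost without control 3 or NiO 3. Both calls were lost without the arrays low in eye transcripts. Without the testis-rich arrays the differences were 2.12 under CuO and 2.1 under NiO, each from 1 array. Under ZnO the difference was 1.27 (95% interval -0.17 to 2.71, adjusted p = 0.176). The CuO differences of tekt2 and tekt4 were 0.13 and 0.25 (adjusted p = 0.823 and 0.852). Their NiO differences were -0.42 and 0.63 (adjusted p = 0.499 and 0.657). Under ZnO, where not every array was well above background, their differences were -1.09 and -1.62 and no test is read.

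Intraflagellar transport genes changed in both directions. Of the 13, 3 rose and 0 fell under CuO, 2 rose and 3 fell under ZnO, and 1 rose and 1 fell under NiO. Over all genes, 11.4%, 13.8% and 10.1% rose and 13.7%, 11.9% and 12.1% fell under CuO, ZnO and NiO. None of the 13 was among the members that were highest on the testis-rich arrays. That order was held by 0.721% of all genes, so its absence cannot set the 13 apart from other genes. The retrograde complex gene ift122 was 1.52, 0.90 and 0.35 under CuO, 1.91, 0.99 and 0.87 under ZnO, and 1.23, 1.5 and 0.94 under NiO, against 0.10, -0.05 and -0.64 in the controls. All exposed arrays were above the controls, yet other probes of this gene gave smaller differences, down to -0.37 under ZnO and 0.04 under NiO. It rose 2.74-fold under ZnO (adjusted p = 0.0239), lost without control 3 or ZnO 1, and 2.68-fold under NiO (adjusted p = 0.0289), lost without control 2, control 3 or any 1 of the NiO arrays.

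Among anterograde complex genes, ift172 rose 2.56-fold (adjusted p = 0.0358), ift88 1.88-fold (adjusted p = 0.044) and ift80 1.80-fold (adjusted p = 0.0407) under CuO, and ift81 rose 1.84-fold under ZnO (adjusted p = 0.0208). These calls were kept in 6, 4, 5 and 10 of the 12 fits that left out 1 array. The other probe of ift81 had a difference of -0.11 under ZnO. The level of ift172 was 0.20, -0.15 and -0.58 under CuO, against -1.40, -1.56 and -1.63 in the controls, with no overlap. The small GTPase gene ift27 was -0.17, 0.83 and 0.06 under CuO, -0.14, -0.47 and 0.68 under ZnO, and 0.44, -1.15 and 0.22 under NiO, against 1.78, 1.11 and 1.53 in the controls. It fell 2.73-fold under ZnO (adjusted p = 0.0497), kept in 2 of the 12 fits that left out 1 array, and 3.11-fold under NiO (adjusted p = 0.0354), kept in 7. The GTPase gene ift22 fell 2.27-fold (adjusted p = 0.0381) and ift56 fell 2.14-fold (adjusted p = 0.0478) under ZnO, calls kept in 6 and 3 of those fits. The remaining transport genes ift20, ift52, ift57, ift70 and ift74 were not called in any exposure.

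The gene ccdc83 followed the testis-rich arrays. It was -2.68, 0.38 and -0.16 under CuO, -3.37, -3.60 and -0.35 under ZnO, and -2.67, -1.03 and 0.37 under NiO, against -4.70, -4.46 and -4.33 in the controls. All exposed arrays were above the controls, the testis-rich arrays by the most. It rose 12.8-fold under CuO (adjusted p = 0.0299) and 10.5-fold under NiO (adjusted p = 0.0444), calls that were kept in 7 and 5 of the 12 fits that left out 1 array. Under ZnO the difference was 2.05 (95% interval -0.30 to 4.41, adjusted p = 0.179).

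The exposures were also compared with each other. limma called 0 genes in all 3 pairs, members and others alike, while 15 members for CuO against ZnO, 1 for CuO against NiO and 13 for ZnO against NiO had an unadjusted p below 0.05. The same held for 9.92%, 6.21% and 4.91% of all genes. The member median relative to the median gene was 0.97 for CuO minus ZnO, 0.19 for CuO minus NiO and -0.82 for ZnO minus NiO. The ZnO group has 1 testis-rich array of 3, against 2 of 3 in each of the other exposures.

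For CuO minus ZnO the difference of cfap45 was 1.37 (95% interval 0.64 to 2.11, adjusted p = 0.325) and that of dnai7 1.37 (95% interval 0.43 to 2.31, adjusted p = 0.384), with no overlap between the groups in either gene. All CuO arrays stood above all ZnO arrays for 6 of 62 members and 6.29% of all genes. For ZnO minus NiO the difference of odad3 was -1.49 (95% interval -2.47 to -0.52, adjusted p = 0.868) and that of dnaaf6 -2.30 (95% interval -3.89 to -0.71, adjusted p = 0.887), again without overlap. All ZnO arrays lay below all NiO arrays for 7 of 62 members and 2.99% of all genes. For CuO minus NiO, ift88 differed by 0.70 (95% interval 0.06 to 1.35, adjusted p = 0.708). The doses were set at 1 fraction of each median lethal concentration, and their mass concentrations differ.

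Other genes of cilia were read from 4 lists that exclude the 62 members. Of 17 tested regulators of ciliogenesis, 1 rose and 4 fell under CuO, with the same numbers under ZnO. Under NiO, 0 rose and 3 fell. Over all genes, 11.4%, 13.8% and 10.1% rose and 13.7%, 11.9% and 12.1% fell under CuO, ZnO and NiO. The master regulator foxj1a was -1.12, -0.74 and -2.07 under CuO, -3.75, -1.90 and -1.97 under ZnO, and -0.97, -1.99 and 0.42 under NiO, against -3.58, -2.11 and -2.30 in the controls. The CuO and NiO arrays lay above the controls, but the differences of 1.35 and 1.82 did not pass the test (adjusted p = 0.182 and 0.0957). For its paralog foxj1b the differences were 1.83, 0.74 and 1.92 under CuO, ZnO and NiO (adjusted p = 0.0953, 0.493 and 0.0907). Those of the ciliary transcription factor genes rfx2 and rfx3 lay between 0.00 and 1.06, with adjusted p from 0.209 to 0.997. The related gene rfx4 rose by 2.51 under CuO (adjusted p = 0.0208). Falls were found for stil and sass6, needed for centriole duplication, with differences of -3.22 and -2.74 under CuO, -3.47 and -2.03 under ZnO, and -2.90 and -2.22 under NiO. The cell cycle and multiciliation factor gene e2f5 fell by 4.29 under CuO (adjusted p = 0.0179). For these 3 genes the controls were above all exposed arrays and NiO 1 was above the other NiO arrays, the order seen in the oocyte genes.

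In the 50 further motile axoneme genes, under CuO 11 rose and 2 fell, under ZnO 2 rose and 5 fell, and under NiO 10 rose and 2 fell, with medians relative to the median gene of 0.62, -0.22 and 0.51. Over all genes, 11.4%, 13.8% and 10.1% rose and 13.7%, 11.9% and 12.1% fell under CuO, ZnO and NiO. The adenylate kinase gene ak8 was -3.09, -1.56 and -2.03 under CuO, -4.89, -3.65 and -2.31 under ZnO, and -2.71, -2.44 and -1.54 under NiO, against -5.81, -4.81 and -5.71 in the controls. It rose by 3.21 under CuO (adjusted p = 0.00691) and by 3.21 under NiO (adjusted p = 0.00996). The gene morn3 rose in all exposures, by 2.29 under CuO, 1.62 under ZnO and 2.3 under NiO (adjusted p = 0.00418, 0.0183 and 0.00684), and catip also rose in all 3. The doublet lumen gene ribc1 rose by 3.31 under CuO and 2.84 under NiO (adjusted p = 0.0189 and 0.0383).

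The largest fall of that list was dynll2a, a light chain shared by axonemal and cytoplasmic motors. It was -5.84, -5.37 and -5.36 under CuO, -5.64, -6.06 and -5.55 under ZnO, and -0.62, -4.85 and -6.05 under NiO, against 2.03, 1.90 and 2.93 in the controls. The controls and NiO 1 stood above the other 8 arrays, as the oocyte genes did. The differences were -7.81 under CuO, -8.04 under ZnO and -6.13 under NiO (adjusted p = 0.00186, 0.00196 and 0.0066).

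Cilium transport and BBSome genes, 29 in number, had 0 rises in any exposure, with 3 falls under CuO, 5 under ZnO and 3 under NiO. The BBSome gene bbs4 was -4.76, -4.28 and -4.10 under CuO, -4.45, -6.34 and -5.03 under ZnO, and -1.87, -4.02 and -4.76 under NiO, against 0.24, -0.03 and 0.91 in the controls, with differences of -4.75, -5.64 and -3.92 under CuO, ZnO and NiO. Of 29 transition zone and basal body genes, 2 rose and 5 fell under CuO, 0 rose and 5 fell under ZnO, and 2 rose and 3 fell under NiO. For both lists, the shares over all genes under CuO, ZnO and NiO were 11.4%, 13.8% and 10.1% for rises. For falls they were 13.7%, 11.9% and 12.1%.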

How the data were processed

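Scanner files of 12 arrays were deposited, and per the file headers Feature Extraction 11.5.1.1 wrote a background-subtracted processed intensity with flags for each spot. The series table deposited by the authors gives 1 linear intensity for each probe. MAS5 is named in the submitters' processing notes with neither version nor role. The labels speak of a dye swap, but each file holds 1 channel. Per the file headers the array annotation follows danRer7 (Zv9). Coordinates are not printed.

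Outlier and control spots were left out, spots of a probe were averaged, and each log2 intensity was set against the 75th percentile of its array. Of 43603 probes, 26094 matched 1 symbol of the RefSeq table for GRCz12tu, covering 13443 genes. The brightest tested probe stood for a gene. Of 25 members with over 1 tested probe, all probes had differences of the same sign in 22 under CuO, 15 under ZnO and 23 under NiO. Probes called in opposite directions were found for 0 members. limma 3.58.1 in R 4.3.3 fitted 4 group means over 12616 genes, with Benjamini-Hochberg adjustment and a threshold of 0.05. The code was tested on simulated data. p-values measure the spread between the pools.

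The members and lists were chosen with earlier results of these data known. Genes named were, in each comparison with the controls, the 10 largest called changes each way and the 3 largest differences of each role group. From the lists they were foxj1a, foxj1b, rfx2 and rfx3 with up to 5 called genes. Not every difference of a named gene is printed. Other members are named where a further call or an order across arrays is described, chosen after the values were seen. Tests are read only for members well above background on all 3 arrays of both groups, and the other members have values only. gmnc and mcidas were not analysed here. The alternatives were the 75th percentile over probes well above background on all 12 arrays, quantile normalization and ribosomal centring. Also run was normexp (offset 50, on the median signal, since no mean signal column was present). The rest were other probe rules, array weights, the slide as a block, the series table as labelled, separate fits, each array left out, and 2 sets of arrays left out. Sequences and promoter motifs were not analysed here.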

Additional observations from a re-analysis of the deposited data

How the results depend on the processing

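The counts of cilia genes called against the controls depended on the processing more than their median did. Relative to the median gene, the member median kept its sign under CuO (main value 0.46) and NiO (0.44) in every alternative, and changed sign for ZnO in several. Leaving out 1 array at a time gave 4 to 18 rises and 2 to 6 falls under CuO, 0 to 3 rises and 5 to 13 falls under ZnO, and 1 to 11 rises and 1 to 3 falls under NiO. Relative medians were then 0.29 to 0.68, -0.50 to 0.07 and 0.38 to 0.60. Centring on ribosomal protein genes gave 6 rises under CuO, 1 under ZnO and 4 under NiO, and turned the split of all called genes to 696 higher and 1868 lower under CuO (1439 and 1723 before), 825 and 1525 under ZnO (1735 and 1506 before). With the 75th percentile over probes detected on all arrays that split was 1200 and 1650 under ZnO. The mean over probes gave 3 falls under CuO and 1 rise under ZnO, and a split of 1044 and 1555 under ZnO. Array weights gave 25 rises and 10 falls under CuO and 16 and 7 under NiO. Quantile normalization gave 5 falls under NiO. Fitting only the groups compared gave 1 rise and 5 falls under ZnO. Without the 4 arrays low in eye transcripts there were 5 rises under CuO, 0 rises and 4 falls under ZnO, and 0 of both under NiO. That setting called 2692, 1927 and 5 genes in all under CuO, ZnO and NiO, against 3162, 3241 and 2805 in the full fit. The full fit made 54 member calls against the controls, those not detected on every array included. Of these, 13 were kept without the arrays low in eye transcripts and 34 with ribosomal centring. Without the 5 testis-rich arrays, chosen after seeing the data, there were 0 of both under CuO and NiO, and 0 rises and 4 falls under ZnO. That setting leaves 1 array in the CuO and NiO groups, whose spread is then assumed to be that of the others, and it called 432, 915 and 0 genes in all.

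Replicate numbers coincide with slides. Deviations from the group means correlated above 0.1 in 7 of 18 same-slide pairs (from -0.58 to 0.48). Transcripts of other tissues also differed between the pools, so these mixed values cannot tell whether the numbers pair the samples. With the slide as a block, 12 members rose and 4 fell under CuO, 3 and 9 under ZnO, and 10 and 3 under NiO.

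The series table read as labelled gave 0 rises and 0 falls among members and 0 called genes of 12616 in all 3 comparisons, and 10 of its 12 columns hold another sample's array. There, differences with the opposite sign to the scanner files were found for spef1 (1.59 under CuO, 0.61 under ZnO), dnaaf10 (1.16 and 0.93), cfap298 (0.34 and 0.60), cfap97 (0.18 under CuO), dnal4b (0.0079 under CuO), dnaaf6 (0.76 under ZnO), ift22 (0.17 under ZnO), ift56 (0.60 under ZnO) and ift122 (-0.53 under ZnO, -0.42 under NiO). In column order, the table holds control 1, CuO 1, ZnO 1 and NiO 1, followed by the same groups of replicate 2 and then of replicate 3. By the file links, this is the order of slides and of positions on each slide. Which of the file links and the column names is right cannot be told from these files. By another probe, drc11 was called under CuO and NiO, and ift56 under CuO (-1.44). A probe of cfap206, well above background on only 9 arrays, had a difference of 2.86 under ZnO. Its brightest probe had 0.66 there, and the other probes fitted had 0.07 and -0.0007. The cause of the other shifts was not tested.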
